A study of Mus musculus with 4 samples.

Results

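Promoter acetylation of histone H3 was compared between a pressure-overloaded and a sham-operated mouse left ventricle, both under treatment with TSA (trichostatin A), an inhibitor of the class I and II histone deacetylases. The members are the genes whose promoter held a mean of at least 10 raw counts over the 4 libraries of the series, which left 22835 of 23631 genes, none of them at 0 in either library. The animals were male C57BL6 mice of 10 to 12 weeks, operated for transverse aortic constriction (TAC) or sham, and then injected subcutaneously 2 times a day for 4 weeks. The TSA groups received 0.6 mg/kg/day of TSA, and the vehicle (Veh) groups, used here only for comparison, received DMSO. Chromatin of whole left ventricle was immunoprecipitated with an antibody to acetylated H3 and sequenced. Each of the 4 groups, Sham Veh, TAC Veh, Sham TSA and TAC TSA, is 1 library. No comparison has a replicate check, no p-value is given, and every interval covers counting error only. The number of animals behind each library is not stated in the labels. The labels tie both sham libraries, and neither TAC library, to an earlier deposit, so the surgery and any difference between deposits cannot be told apart.

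Acetylation of the H3 tail marks the promoters of genes that are open to transcription. Acetyltransferases write the mark and histone deacetylases remove it. Constriction of the aorta raises the load on the left ventricle, which answers with myocyte growth, re-expression of fetal genes, fibrosis and an influx of leukocytes, and deacetylase inhibitors are known to blunt that growth in rodents. The tissue holds many cell types, and in bulk chromatin fewer cells of a type and less acetylation per cell cannot be told apart.

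The TAC TSA library was the shallowest, with 6842296 promoter counts, against 9612616 in Sham Veh, 9905553 in Sham TSA and 8873302 in TAC Veh. The scaled ratio of TAC TSA to Sham TSA moved with the mean count. Its median on the log2 scale ran from 0.67 in the lowest decile of counts to -0.13 in the highest. Olfactory and vomeronasal receptor promoters, which are normally silent in the heart, held a median of 17 counts in Sham Veh, 20 in TAC Veh, 18 in Sham TSA and 22 in TAC TSA, so the shallowest library had the most counts at such sites. Each ratio below is therefore a log2 ratio of TMM-scaled counts (edgeR's trimmed-mean scaling) after subtraction of the trend with mean count, and is relative to promoters of similar count. A promoter was called where this ratio passed 1.5-fold and its exact 95% counting interval excluded no change. By that rule 192 promoters were called higher in TAC TSA (0.841% of those tested) and 295 lower (1.29%). Without the trend the same rule gave 1643 higher (7.2%) and 47 lower (0.206%). Close to the threshold, 93 lower and 55 higher promoters lay within 0.1 log2 inside it, and a further 109 and 81 whose interval excluded no change lay within 0.1 log2 outside it. Calls were scarce among well-filled promoters: of genes with more than 228.25 mean counts, 4 were called higher and 7 lower. The middle 50% of ratios spanned 0.674 in the lowest decile, where counting alone would give 0.636, and 0.141 in the highest, where it would give 0.111.

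**Figure D1:**
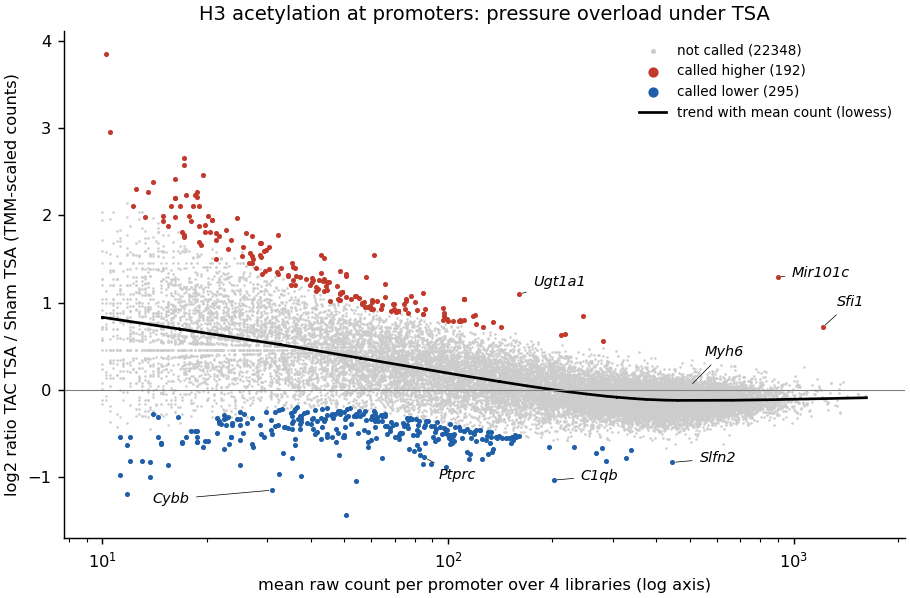
Log2 ratio of TMM-scaled counts, TAC TSA over Sham TSA, against the mean raw count of each promoter over 4 libraries (log axis), with 1 point per gene, the trend as a black line, 192 promoters called higher in red and 295 called lower in blue. The cloud bends upward at low counts, and most called promoters lie to the left of 200 counts.

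Promoters of macrophage genes were low in TAC TSA relative to Sham TSA. All 34 measured genes of a macrophage and complement list had a ratio below 0, with a median of -0.43, and 8 of them (23.5%) were called lower against 1.29% of all promoters and 2.25% of those between 94.25 and 146.5 mean counts, where the median member lies. With the trend left in, 5 members were called lower and 0 higher. The median over all promoters was -0.00. Under vehicle the same list had a median of 0.28, with 4 members called higher and 0 lower. Summed over the list, scaled CPM (counts relative to the scaled library size) were 727 in Sham Veh, 870 in TAC Veh, 879 in Sham TSA and 709 in TAC TSA. TAC TSA thus stood close to Sham Veh, and Sham TSA stood above Sham Veh by a log2 ratio of 0.27 (0.22 to 0.33). The TSA comparison starts from a sham library in which these promoters were already high, and the part of that library in the result was not tested.

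C1qb encodes a chain of C1q, the starter molecule of the classical complement pathway, made largely by tissue macrophages. Its promoter held 200 counts in Sham Veh, 228 in TAC Veh, 280 in Sham TSA and 99 in TAC TSA, or 29.5, 35.9, 40.4 and 19.7 scaled CPM. TAC TSA was the lowest of the 4 libraries and Sham TSA the highest. The ratio was -1.04 (-1.38 to -0.70), a 2.05-fold decrease. Of the chains encoded beside it, C1qa had a ratio of -0.43 (-0.77 to -0.10) and C1qc of -0.09 (-0.35 to 0.16), and neither was called. The 250 bases before the C1qb start are shown because this promoter combines a high count with a large decrease. They lie on the minus strand at chr4:136886201-136886450 in GRCm38.p6, from RefSeq.
C1qb: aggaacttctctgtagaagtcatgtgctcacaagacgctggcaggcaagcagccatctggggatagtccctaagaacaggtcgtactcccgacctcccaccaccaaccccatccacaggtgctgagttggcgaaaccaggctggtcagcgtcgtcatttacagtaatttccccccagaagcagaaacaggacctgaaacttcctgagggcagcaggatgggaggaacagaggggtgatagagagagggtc

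Cybb encodes the catalytic subunit of the phagocyte NADPH oxidase. It held 30 counts in Sham Veh, 29 in TAC Veh, 49 in Sham TSA and 16 in TAC TSA, a ratio of -1.69 (-2.60 to -0.85). P2ry12 encodes an ADP receptor known from microglia, platelets and some macrophages. It held 85, 108, 145 and 57 counts in the same order, a ratio of -1.08 (-1.55 to -0.63). Both promoters were lowest in TAC TSA and highest in Sham TSA. Clec4a1, a C-type lectin receptor, held 126, 143, 163 and 68 counts, a ratio of -0.93 (-1.36 to -0.51). The other called members were Msr1 (-0.94) and Mrc1 (-0.66), both scavenger or mannose receptors, Cd163 (-0.68), which takes up haemoglobin, and Adgre1 (-0.64), which encodes F4/80. These 4 were named after their values were seen. Csf1r, the receptor that macrophages need to survive, had a ratio of -0.47 (-0.81 to -0.14) and was not called.

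Mir223 encodes a microRNA of granulocytes and monocytes. Its promoter held 40 counts in Sham Veh, 69 in TAC Veh, 80 in Sham TSA and 28 in TAC TSA, a ratio of -1.42 (-2.10 to -0.79). F630028O10Rik, which starts a short way before Mir223 on the same strand, held 39, 59, 82 and 22 counts, a ratio of -1.83 (-2.58 to -1.14). The 2 entries give nearly the same counts and may share reads. The mature products are shown with bases 2 to 8, the seed that pairs with target messages, in capitals. They are from RefSeq on GRCm38.p6 at chrX:96242842-96242864 and chrX:96242884-96242905, plus strand.
miR-223-5p: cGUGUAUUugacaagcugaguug
miR-223-3p: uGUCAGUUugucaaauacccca

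Of 22 measured genes that all or most leukocytes use, 6 (27.3%, against 1.29% of all promoters and 2.25% of those between 94.25 and 146.5 mean counts) were called lower and 0 higher. Of the 22, 19 had a ratio below 0, with a median of -0.36. With the trend left in, 2 of them were called, Ptprc and Lcp2. Ptprc encodes CD45, the phosphatase on the surface of every nucleated blood cell. It held 74 counts in Sham Veh, 99 in TAC Veh, 118 in Sham TSA and 50 in TAC TSA, a ratio of -1.01 (-1.52 to -0.53). Lcp2, an adaptor that carries antigen receptor signals, had a ratio of -0.83 (-1.24 to -0.43). Cd53, a leukocyte tetraspanin, had -0.83 (-1.42 to -0.26), and Cd48, an adhesion molecule of leukocytes, -0.75 (-1.29 to -0.22). The remaining 2, Cd84 (-0.67) and Ikzf1 (-0.63), were named after their values were seen. The summed scaled CPM of the list were 588 in Sham Veh, 645 in TAC Veh, 661 in Sham TSA and 576 in TAC TSA, again with TAC TSA the lowest and Sham TSA the highest.

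Of 26 chemokine and cytokine promoters, 4 (15.4%, against 1.29% of all and 2.25% of those between 94.25 and 146.5 mean counts) were called lower and 0 higher, with a median of -0.16. With the trend left in, 1 was called lower and 2 higher. All 4 are CC chemokines that draw in monocytes and other leukocytes. Ccl12 held 65 counts in Sham Veh, 104 in TAC Veh, 128 in Sham TSA and 64 in TAC TSA, a ratio of -0.76 (-1.21 to -0.31). Ccl9 had a ratio of -0.93 (-1.44 to -0.43), Ccl7 of -0.70 (-1.13 to -0.28) and Ccl6 of -0.61 (-1.0 to -0.22). Of 25 lymphocyte genes measured, 14 were below 0, with a median of -0.01, and the single called gene was Gzmb, a granzyme of killer lymphocytes, which was higher at 0.63 with an interval that reached 0.00. Cd3e, a chain of the T cell receptor complex, had a ratio of -0.01 (-0.52 to 0.50).

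**Figure D2:**
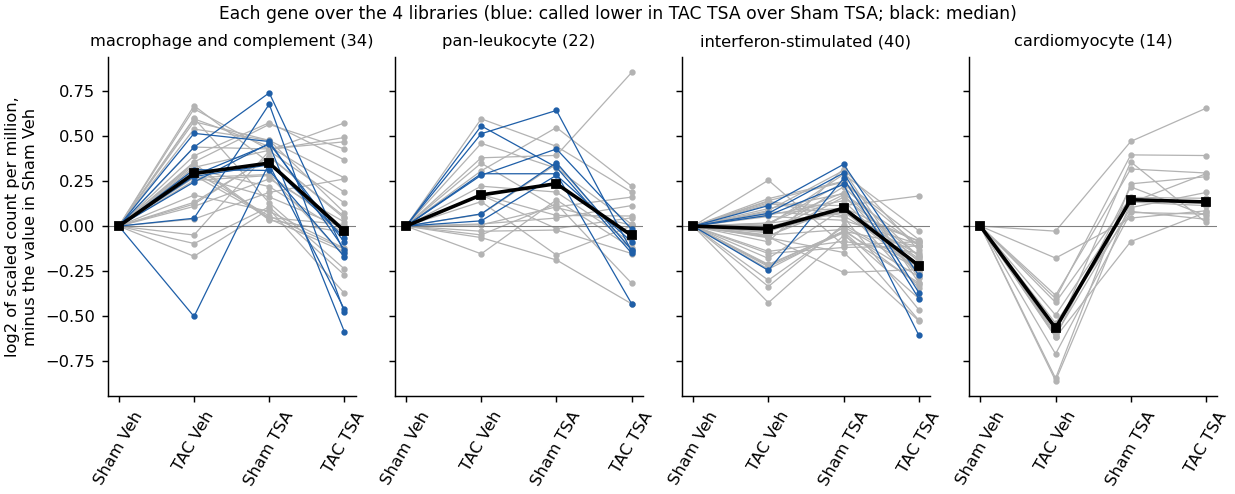
Log2 of the scaled CPM of each gene minus its value in Sham Veh, for 4 gene lists over the 4 libraries, with 1 grey or blue line per gene (blue where called lower in TAC TSA over Sham TSA) and the list's median in black. In the macrophage and pan-leukocyte lists the medians are raised in TAC Veh and Sham TSA and are back near 0 in TAC TSA, whereas the cardiomyocyte genes are low in TAC Veh only.

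Interferon-stimulated genes form part of the antiviral programme that type I and II interferons switch on. Of 40 measured, 38 had a ratio below 0, with a median of -0.21, and 4 (10%, against 1.29% of all promoters) were called lower and 0 higher. Under vehicle the median was 0.00 and 0 were called. Slfn2, a schlafen gene of myeloid cells and lymphocytes, held 485 counts in Sham Veh, 474 in TAC Veh, 582 in Sham TSA and 237 in TAC TSA, a ratio of -0.71 (-0.94 to -0.49). The 3 other libraries lay well above TAC TSA. Zbp1, a sensor of unusual nucleic acids, had a ratio of -0.67 (-1.0 to -0.35), Ifit3, an antiviral protein that binds RNA, -0.73 (-1.12 to -0.34), and Iigp1, an immunity-related GTPase, -0.60 (-0.86 to -0.33). Irf7, a regulator of interferon genes, had a ratio of -0.03 (-0.24 to 0.17) and was not called. The summed scaled CPM were 2514 in Sham Veh, 2455 in TAC Veh, 2706 in Sham TSA and 2137 in TAC TSA, so that here TAC TSA lay below both vehicle libraries. Of 23 antigen presentation genes, 17 were below 0 and 2 (8.7%, against 1.29% of all promoters) were called lower. These were Cd74, the chaperone of class II molecules, at -0.71 (-1.15 to -0.28), and the class I-like H2-T24, which held 371, 311, 438 and 185 counts in the order above, at -0.69 (-0.94 to -0.44).

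Gene families whose members were gathered by name held several of the same genes. The families themselves were chosen with earlier results of these data known. Of 18 Ms4a genes, which encode membrane proteins of leukocytes, 6 (33.3%, against 1.29% of all promoters and 4.1% of those between 28.5 and 56.25 mean counts) were called lower and 0 higher. Of 32 Clec genes, which encode C-type lectins, 6 (18.8%, against 3.37% of promoters between 56.5 and 94 mean counts) were lower and 0 higher. Both counts rest on the trend correction: with the trend left in, 1 Ms4a gene was called lower and 1 higher, with the family's median turning from -0.22 to 0.10, and 3 Clec genes were lower and 0 higher. Clec4b1 held 32 counts in Sham Veh, 36 in TAC Veh, 60 in Sham TSA and 22 in TAC TSA, a ratio of -1.47 (-2.24 to -0.74). Ms4a6c held 55, 86, 123 and 55 counts, a ratio of -0.96 (-1.44 to -0.49). The guanylate-binding and immunity-related GTPases had 16 of 17 members below 0 and a median of -0.31. Gbp10 (-1.01, -1.64 to -0.40) and Iigp1 were called lower (11.8%, against 1.29% of all promoters). Of 40 H2 genes 1 (2.5%), H2-T24, was called lower, and the family's median was -0.04. Of 11 schlafen genes 1 (9.09%), Slfn2, was called lower, with a median of -0.22. Near-identical copies are common in these families, and the labels do not say how reads with several placements were counted.

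Over the 6 immune lists, 24 of 169 distinct genes (14.2%) were called lower and 1 higher, and 142 were below 0. They made up 8.14% of all promoters called lower, and 0.74% of all genes. In 22 of these 24 the scaled count was lowest in TAC TSA, and in 19 it was highest in Sham TSA. Over all 295 promoters called lower those numbers were 178 and 205. The choice of these promoters used the same 2 libraries, so the extremes partly restate it. With the trend left in, 14 of the 169 were called lower and 5 higher, and 13 of the 24 kept their call: C1qb, Ccl9, Clec4a1, Cybb, H2-T24, Ifit3, Iigp1, Lcp2, Msr1, P2ry12, Ptprc, Slfn2 and Zbp1. At 2-fold in place of 1.5-fold 4 were lower. When the libraries were scaled on receptor promoters instead, without the trend, 122 were called lower, but so were 11895 of all promoters.

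Matches to 2 immune motifs were more frequent in lowered promoters of 50 to 230 mean counts than in all promoters of that range. They were not clearly more frequent in the range from 10 to 50. The NF-kB core, also an immune motif, differed little from all promoters in either range. RefSeq gave a promoter entry on GRCm38.p6, from 250 bases before to 50 after the start, for 17109 genes, and the 14391 with exactly 1 entry were searched on both strands for 13 short motifs. The 2 ranges hold 94 and 92 of the 190 lowered promoters searched. The core of the interferon-stimulated response element (ISRE), bound by interferon regulatory factors and written GAAANNGAA, was present between 50 and 230 counts in 23 of 94 lowered promoters (24.5%), 2 of 39 raised ones (5.13%) and 339 of all 4373 (7.75%). Between 10 and 50 counts it was present in 9 of 92 lowered promoters (9.78%), 12 of 77 raised ones (15.6%) and 347 of all 2892 (12%). In the upper range, leaving X-linked genes out gave 20 of 81 lowered promoters (24.7%) and 7.84% of all. The core of the site of PU.1, the main regulator of myeloid cells, written AGGAAGTG, was present in 11 of 94 lowered promoters (11.7%), 1 of 39 raised ones (2.56%) and 4.18% of all in the upper range, and in 3 of 92 (3.26%), 5 of 77 (6.49%) and 3.04% in the lower one. The NF-kB core, GGGANTTCC, was present in 2 of 94 lowered promoters (2.13%), 1 of 39 raised ones (2.56%) and 1.44% of all in the upper range. Leaving X-linked genes out gave 1 of 81 lowered promoters (1.23%) and 1.46% of all. In the lower range the NF-kB core was present in 1 of 92 lowered promoters (1.09%) and 1.07% of all. The GC box of SP and KLF factors, GGGCGGGG, was present in 9.57% of lowered promoters against 17.9% of all in the upper range, and in 4.35% against 3.7% in the lower one. The base composition differed too: in the upper range the median GC content was 46.2% in lowered promoters and 54.7% in all, in the lower range 42% in both, and its part in these shares was not tested. Over any count, the ISRE core was present in 16.8% of 190 lowered and 12.7% of 118 raised promoters. Of all 14391, 8.1% held the ISRE core, 3.82% the PU.1 core and 24.2% the GC box. A match is a run of letters and not a measured binding site, and the paralogs Ms4a6b and Ms4a6c share much of their sequence and are not independent matches.

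The windows that follow are a selection of the matches in lowered promoters, with the matched letters in capitals and 25 bases kept on each side where the promoter allows. I830077J02Rik, Fyb and Ccdc186 (ISRE core) and Hpgds (PU.1 core), among others, also held a match and are not shown. The first 5 windows hold the ISRE core and the others the PU.1 core, on either strand. The windows come from chrX:96239828-96239886 (plus), chr19:11469210-11469268 (plus), chr19:34583349-34583407 (plus), chr5:120887614-120887656 (minus), chr1:173673582-173673640 (plus), chr11:83065031-83065088 (plus), chr11:82101595-82101648 (plus) and chr2:14229177-14229234 (plus), all GRCm38.p6.
F630028O10Rik: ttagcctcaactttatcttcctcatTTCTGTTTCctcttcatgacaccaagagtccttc
Ms4a6c: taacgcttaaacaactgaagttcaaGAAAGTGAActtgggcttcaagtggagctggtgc
Ifit3: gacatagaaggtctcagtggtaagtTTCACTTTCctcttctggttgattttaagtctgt
Oas1g: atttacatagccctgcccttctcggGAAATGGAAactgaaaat
Ifi208: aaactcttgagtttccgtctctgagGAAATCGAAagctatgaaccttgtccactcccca
Slfn2: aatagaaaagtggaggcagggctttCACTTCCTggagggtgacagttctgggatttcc
Ccl12: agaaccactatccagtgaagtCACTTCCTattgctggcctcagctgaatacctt
Mrc1: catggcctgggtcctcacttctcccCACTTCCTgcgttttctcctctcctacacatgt

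In Ifit3, Oas1g and Ifi208, all interferon-stimulated, the matches end 147, 10 and 50 bases before the start, and in Slfn2 the PU.1 core ends 49 bases before it. Oas1g had a ratio of -0.88 and Ifi208 of -0.85, and both were named for their matches after their values were seen. C1qb held none of the 13 motifs in its 300 bases, which says only that these letters are not in that window.

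**Figure D3:**
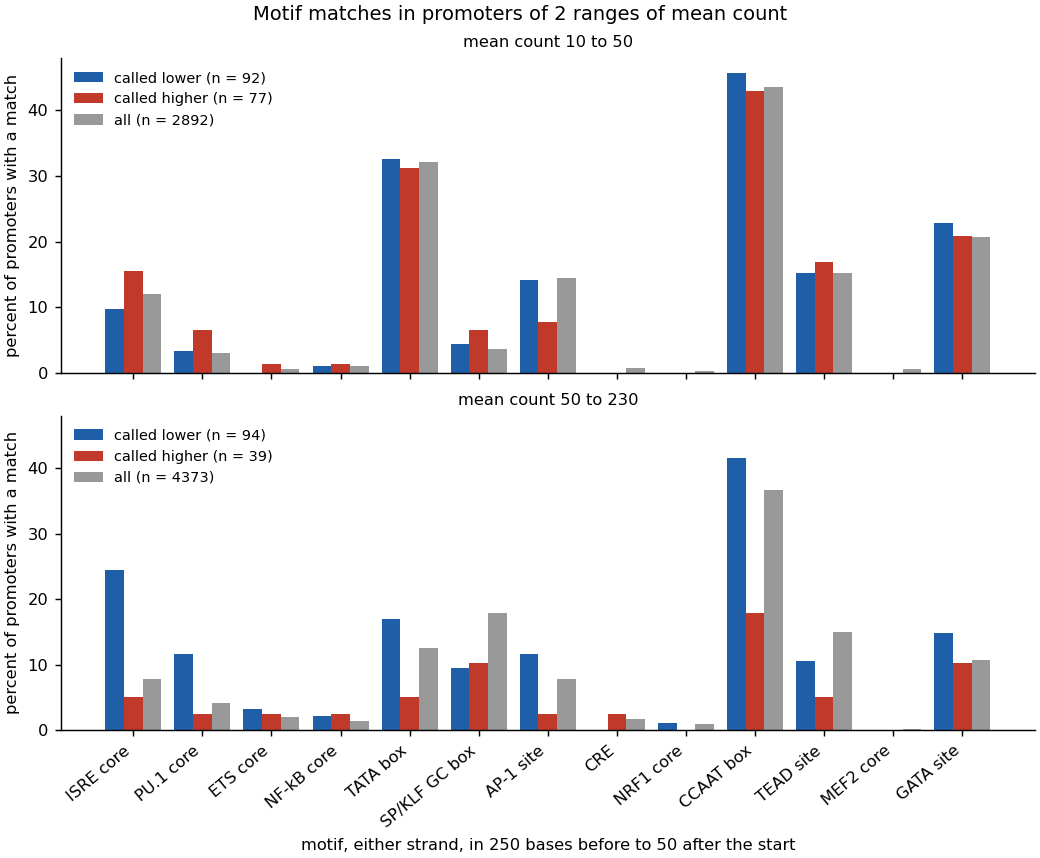
Percent of promoters with at least 1 match to each of 13 motifs, called lower (blue), called higher (red) and all (grey), for mean counts of 10 to 50 (upper panel, n = 92, 77 and 2892) and 50 to 230 (lower panel, n = 94, 39 and 4373). The ISRE core stands at 24.5% in lowered promoters against 7.75% of all in the lower panel, and at 9.78% against 12% in the upper one.

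No promoter of the contractile apparatus was called lower with overload under TSA. Of 23 adult sarcomere genes, 19 had a ratio above 0, with a median of 0.16, and 0 were called. Of 14 cardiomyocyte markers, 12 were above 0, with a median of 0.11, and 0 were called. Under vehicle the 2 lists had medians of -0.39 and -0.55, with 6 members of each called lower. Summed scaled CPM of the cardiomyocyte markers were 897 in Sham Veh, 638 in TAC Veh, 1016 in Sham TSA and 1018 in TAC TSA, so that 1 library, TAC Veh, stood below the other 3. For the sarcomere list the sums were 1384, 1056, 1532 and 1580. These medians are relative to promoters of like count. With TMM scaling and the trend left in they were 0.04 for the sarcomere list and -0.004 for the cardiomyocyte list. With scaling on receptor promoters and no trend they became -0.55 and -0.60 in that order, as the median of all promoters moved down too.

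Myh6 encodes the fast adult myosin heavy chain of the mouse ventricle. It held 553 counts in Sham Veh, 289 in TAC Veh, 665 in Sham TSA and 497 in TAC TSA, or 81.6, 45.5, 96.0 and 98.7 scaled CPM. The ratio under TSA was 0.16 (-0.01 to 0.33) and under vehicle -0.81 (-1.02 to -0.60), a difference of 0.98 (0.71 to 1.24). Actc1, cardiac alpha-actin, had 0.27 (0.06 to 0.47) under TSA and -0.84 (-1.09 to -0.60) under vehicle. Ryr2, the calcium release channel, had 0.05 (-0.20 to 0.29) and -0.70 (-0.98 to -0.42). Kcnj11, a subunit of the ATP-sensitive potassium channel, had 0.54 (0.33 to 0.74) and -0.56 (-0.80 to -0.33), which is a change of sign, although neither value was called. For each of these 4 genes the difference between the comparisons had a counting interval above 0. Pln, the brake on the calcium pump, remained on the low side under TSA at -0.22 (-0.43 to -0.02) against -0.58 (-0.81 to -0.34) under vehicle, and Kcnj3, an acetylcholine-gated potassium channel of the atria, had -0.20 (-0.49 to 0.08) against -1.03 (-1.43 to -0.64). Atp2a2, the calcium pump itself, had 0.10 (-0.06 to 0.26).

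Fetal and hypertrophy genes were above 0 in 18 of 30 cases, with a median of 0.07 and 0 called. The natriuretic peptide genes, the standard markers of ventricular load, stood at the upper end. Nppa held 108 counts in Sham Veh, 137 in TAC Veh, 87 in Sham TSA and 105 in TAC TSA, a ratio of 0.57 (0.14 to 0.99) under TSA and 0.42 (0.04 to 0.80) under vehicle. Nppb held 118, 171, 164 and 175 counts, a ratio of 0.49 (0.18 to 0.81) and 0.63 (0.29 to 0.98). In both genes the interval lay above 0 in both comparisons, and the difference between them did not exclude 0, at 0.15 (-0.40 to 0.70) for Nppa and -0.14 (-0.60 to 0.31) for Nppb. Agt, angiotensinogen, had 0.58 (0.25 to 0.92) under TSA and -0.06 (-0.38 to 0.27) under vehicle, and Myh7, the slow fetal myosin, 0.40 (0.13 to 0.66) and 0.34 (0.07 to 0.61). Nppa and Agt missed the threshold of 1.5-fold narrowly. When the median receptor count of each library was subtracted first, Nppa (0.89), Nppb (0.69) and Agt (0.79) were called higher. That setting raised the number of higher calls in general, to 677 promoters against 192, with 118 shared. Acta1, skeletal alpha-actin, had 0.28 (-0.13 to 0.69) under TSA and 0.77 (0.42 to 1.12) under vehicle. Mef2c, a cardiac transcription factor, had 0.33 (-0.38 to 1.05), which its 32 and 40 counts under TSA cannot separate from 0.

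Extracellular matrix genes had a median of 0.07 under TSA, with 0 of 33 called, and 0.29 under vehicle, with 4 called higher. Postn, periostin of activated fibroblasts, held 121 counts in Sham Veh, 196 in TAC Veh, 128 in Sham TSA and 86 in TAC TSA. Its ratio was -0.22 (-0.63 to 0.18) under TSA and 0.79 (0.45 to 1.13) under vehicle, a difference of -1.01 (-1.52 to -0.50). TAC Veh was the highest of the 4 libraries. Thbs4, a matrix thrombospondin, held 41, 98, 85 and 53 counts in that order, a ratio of -0.52 (-1.04 to -0.01) under TSA and 1.28 (0.74 to 1.84) under vehicle. Runx1, a transcription factor re-expressed in injured myocardium, held 367, 541, 395 and 216 counts, a ratio of -0.30 (-0.54 to -0.05) and 0.67 (0.48 to 0.87). Col1a1, the main fibrillar collagen, had 0.08 (-0.18 to 0.33) and 0.50 (0.26 to 0.74). Fibroblast markers had a median of -0.08, endothelial markers of 0.05 and smooth muscle and pericyte markers of 0.07, with 0 called in any of these lists.

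Genes of energy metabolism stayed close to 0. The median was 0.03 for fatty acid oxidation (28 genes, against -0.24 under vehicle), 0.01 for oxidative phosphorylation and -0.00 for glycolysis, with 0 called. Calcium handling and channel genes had a median of 0.01 against -0.27 under vehicle. Deacetylases, acetyltransferases and bromodomain readers, the machinery that TSA addresses, had a median of -0.02 over 25 genes with 0 called, and Hdac2, a class I deacetylase, had -0.05 (-0.24 to 0.15). The lists of cardiac transcription factors, immediate early genes, cell cycle and autophagy had medians between -0.06 and 0.06, with 0 called. In the neurohumoral list Agtr1b, an angiotensin receptor, was called lower at -0.94 (-1.80 to -0.11) from 37 counts in Sham TSA and 20 in TAC TSA. Ces1d, a lipid-handling carboxylesterase, had -0.36 (-0.66 to -0.06) under TSA and -1.38 (-1.80 to -0.98) under vehicle.

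**Figure D4:**
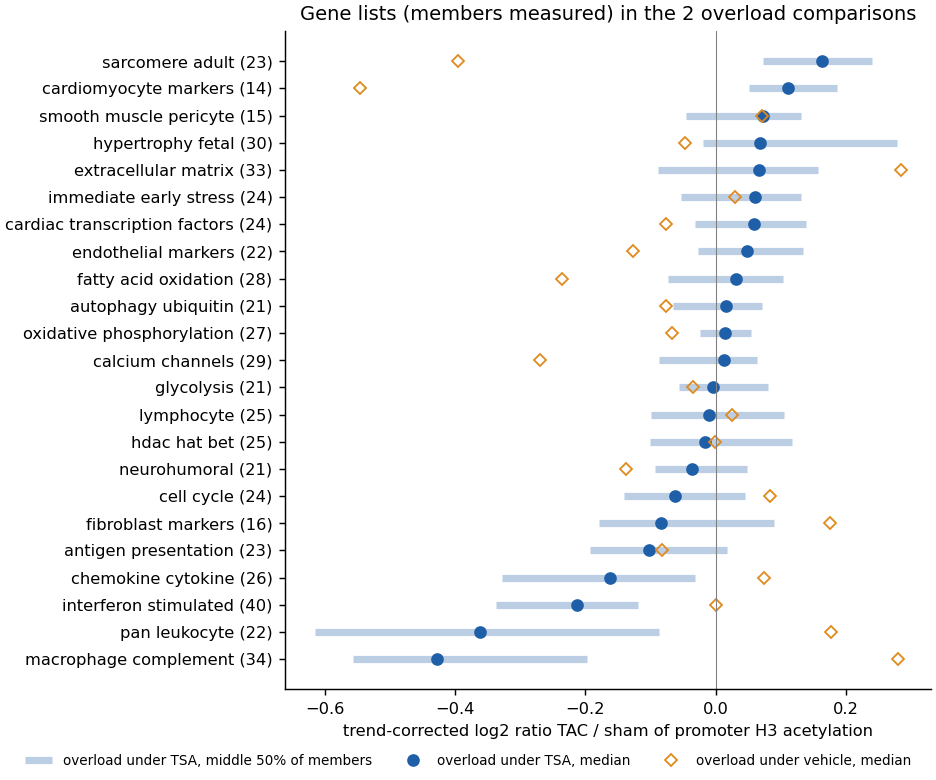
Median trend-corrected log2 ratio of TAC over sham for 23 gene lists under TSA (blue points, with the middle 50% of members as a bar) and under vehicle (open orange diamonds), with the number of members measured in brackets. The macrophage list is lowest under TSA at -0.43 and stands at 0.28 under vehicle, and the sarcomere list is highest under TSA at 0.16 and stands at -0.39 under vehicle.

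The 2 overload comparisons share no library, and across 22835 genes their ratios had a Pearson correlation of 0.046 and a Spearman correlation of 0.022. Genes are not independent replicates, and the value is a description. At or above the median mean count the correlation was -0.028, and without the trend correction it was 0.294 over all genes. Of the called promoters, 2 were higher in both comparisons, 12 were lower in both, 12 were lower under TSA and higher under vehicle, and 3 the reverse. Under vehicle the same rule called 201 promoters higher (0.88%) and 240 lower (1.05%). Among those that changed direction was Serpina3n, an acute-phase protease inhibitor, which held 86 counts in Sham Veh, 177 in TAC Veh, 169 in Sham TSA and 82 in TAC TSA. Its ratio was -0.70 (-1.10 to -0.31) under TSA and 1.13 (0.75 to 1.52) under vehicle, so that the 2 sham-to-TAC steps mirrored each other. Serpina3i, Ccl12, Ms4a4c, Ms4a6c and Mir223 did likewise. The rest of the 12 lower under TSA and higher under vehicle were Clca4b, Gm13710, Gm13944, Gm6260, Jakmip2 and Nlrp9b. They, Serpina3n and Serpina3i were named after their values were seen.

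In 189 of the 192 promoters called higher the scaled count was highest in TAC TSA, and in 165 it was lowest in Sham TSA, which the choice of these promoters largely fixes. Mir101c held 634 counts in Sham Veh, 987 in TAC Veh, 709 in Sham TSA and 1263 in TAC TSA, a ratio of 1.41 (1.27 to 1.54). It was called higher under vehicle too, at 0.79 (0.64 to 0.94), so both TAC libraries stood above both sham libraries. That split is shared by the surgery and the earlier deposit of the sham libraries, which cannot be told apart. Its mature product is shown with the seed in capitals, from RefSeq at chr9:3038680-3038698, minus strand, GRCm38.p6.
miR-101c: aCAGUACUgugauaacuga

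Sfi1, a centrosome-linked gene, held 1045, 1302, 1139 and 1358 counts in the same order, a ratio of 0.82 (0.70 to 0.93) under TSA and 0.48 (0.36 to 0.60) under vehicle. Ugt1a1, which conjugates bilirubin, held 148, 151, 134 and 208 counts, a ratio of 1.04 (0.72 to 1.36). Kcnk18, a potassium channel of sensory neurons, held 61, 64, 38 and 81 counts, a ratio of 1.22 (0.64 to 1.81). 2700054A10Rik held 240, 207, 231 and 301, a ratio of 0.89 (0.63 to 1.14). Snord116l2 and Gm26504 have identical counts in every library and are 1 measurement, at 0.89 (0.50 to 1.28). Several of these are tissue-restricted or repeated loci, and none belongs to the cardiac lists.

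Receptors of the nose and keratins were also among the promoters called higher. Of 1274 olfactory and vomeronasal receptors, 33 (2.59%) were called higher and 24 (1.88%) lower, with a median of 0.05. These promoters have few counts, and among all promoters of 10 to 28.25 mean counts 2.47% were called in each direction, so the receptors stood near the share for their depth. Vmn2r25, the receptor with the highest ratio, held 10 counts in Sham Veh, 8 in TAC Veh, 2 in Sham TSA and 21 in TAC TSA, and its ratio of 3.03 has an interval from 1.00 to 6.17. Among the other called ones, Olfr965 held 18, 8, 8 and 31 counts, a ratio of 1.71 (0.56 to 3.04), and Olfr576 held 26, 15, 5 and 23, a ratio of 1.97 (0.55 to 3.73). Of 54 keratins, the filament proteins of epithelia, 4 (7.41%, against 0.841% of all promoters and 1.84% of those between 56.5 and 94 mean counts) were called higher and 0 lower. Krt90 held 83, 65, 70 and 102 counts, a ratio of 0.75 (0.30 to 1.21), and Krt14 held 53, 58, 55 and 76, a ratio of 0.59 (0.07 to 1.12). Of 53 keratin-associated hair proteins 2 (3.77%) were called higher, near the 2.91% of all promoters between 28.5 and 56.25 mean counts. The list had a median of 0.18.

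X-linked promoters stood below the others. Of 814 measured, 51 (6.27%) were called lower and 1 higher, against 1.11% and 0.867% of promoters elsewhere, and 605 (74.3%) had a ratio below 0 against 49.9%. They made up 17.3% of all promoters called lower and 3.56% of all genes. The median was -0.16 on the X, whereas the 19 autosomes had medians between -0.027 and 0.021. Under vehicle the X median was -0.02, with -0.11 between 30 and 60 mean counts and -0.08 between 60 and 100, and 20 X-linked promoters (2.46%) were called lower against 0.999% elsewhere. All libraries are labelled as coming from males, which carry a single X. The offset depended on count: the X median was -0.17 between 10 and 30 mean counts, -0.28 between 30 and 60, -0.28 between 60 and 100, -0.18 between 100 and 200, -0.10 between 200 and 300 and -0.02 from 300 upward. Without the trend correction it was -0.01, since X-linked promoters held a median of 81.75 mean counts against 241.5 elsewhere, and the trend sets a higher reference at low counts. Left uncorrected for the trend, 35 of 814 were called higher and 7 lower, beside 1643 and 47 of all promoters. With a trend fitted to X-linked promoters alone, chosen after seeing the data, 13 of 814 were called lower and 3 higher.

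Some of the lowered immune genes are X-linked. Cybb, Mir223, F630028O10Rik and Sash3, an adaptor of lymphocytes, are among the 51. Without X-linked and Y-linked genes, also chosen after seeing the data, 23 immune genes of 167 were called lower and 261 of 22016 promoters in all, so nearly all of the immune genes called lower are autosomal.

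**Figure D5:**
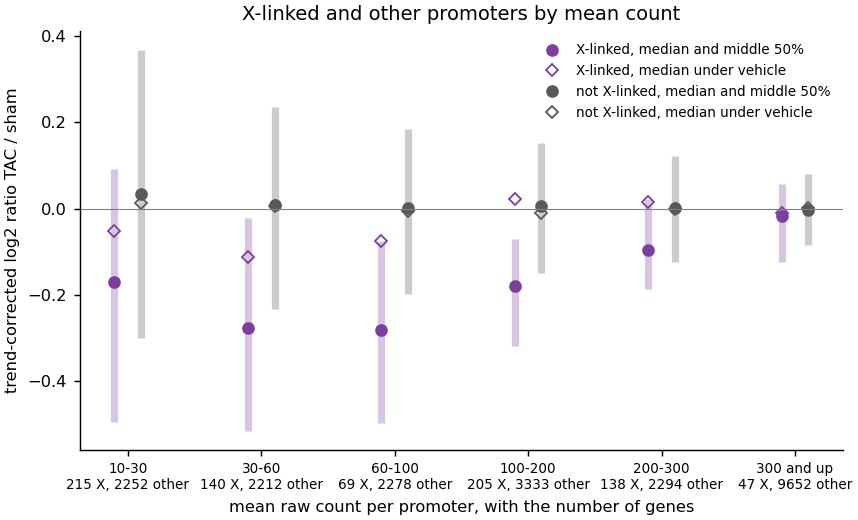
Median trend-corrected log2 ratio of TAC over sham for X-linked (purple) and other promoters (grey) in 6 ranges of mean count, with the middle 50% as bars for TSA and open diamonds for the medians under vehicle. The X-linked medians under TSA lie below the others up to 300 counts, lowest at -0.28, and reach -0.02 above that.

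Regions beyond promoters were taken from the authors' deposited lists of sites that differ between TAC and sham, called on mm9 for each treatment. In the authors' deposited table for TSA, 2349 regions were higher in TAC and 5319 lower, with median widths of 519 and 1236 bp. Their scores, given by the authors, start at 40 in every list. In the authors' deposited table the X chromosome held 217 of the regions higher under TSA (9.24%) and 88 of the lower ones (1.65%), and the Y held 44 (1.87%) and 1. Among X-linked promoters the trend-corrected calls went the other way, with 51 lower and 1 higher. Without the trend correction 35 were called higher and 7 lower, so that contrast rests on the correction. How the regions were scaled is not stated. Of the deposited regions higher under TSA, 77 (3.28%) overlapped by at least 1 bp a region higher under vehicle, and 76 of the 1180 vehicle regions (6.44%) took part. Of the lower ones 237 (4.46%) overlapped a lower vehicle region, and 242 of 3834 vehicle regions (6.31%) took part. Regions lower under TSA and higher under vehicle met in 30 cases (0.564%), and the reverse in 12 (0.511%). The lower region with the highest score was chr13:120275791-120278857 with a score of 394.4 in the authors' deposited table, followed by chr15:78140306-78144886 with 341.68. No gene is assigned to these positions, since the annotation used here is of another build.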

How the data were processed

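Anti-acetyl-H3 chromatin of left ventricle was sequenced in 4 libraries, 1 per group. The authors' deposited table holds raw counts per promoter for 31594 RefSeq IDs. Neither labels nor headers state the promoter window, the counting program, the handling of duplicates or an input control. BWA 0.5.9, MACS 1.4.1 and the build mm9 appear in the submitters' processing notes, with no role stated. The authors' deposited region lists carry a score per region whose scale is not stated, and it was used only to describe and rank.

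Of the IDs, 31115 were matched to a gene of GRCm38.p6 by accession (98.5%), and the 479 others held 1.11% of counts. A gene took its ID of highest mean count, and genes under a mean of 10 counts were left out. Counts were scaled by TMM in edgeR 4.0.16 (R 4.3.3), and a lowess trend (span 0.3) of the log2 ratio on the log2 mean count over 4 libraries was subtracted. Intervals are exact conditional 95% intervals for 2 Poisson counts, shifted by the trend, and differences between comparisons have normal-approximation intervals. Sums per list are not trend-corrected. The procedure was tested on simulated data. With 1 library per group no test between groups is possible. Region overlaps used bedtools 2.31.1.

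The genes named are the 12 called genes per direction whose interval bound lay farthest from 0, up to 4 called members of each list or family per direction, otherwise its highest and lowest members of at least 50 counts, and 22 genes named whatever their value. Csf1r, Irf7 and Cd3e were named outside these rules, and others are marked where they appear. The members, the 23 lists, the 21 families and the 13 motifs were chosen with earlier results of these data known. Other scalings, trends, count minimums, thresholds and intervals were tried.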

Additional observations from a re-analysis of the deposited data

Results flagged for a closer look

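The overload effect was called in opposite directions under TSA and under vehicle, in the 2 pairs of libraries that share none, for few promoters. Of 22835 tested, 12 were lower under TSA and higher under vehicle, and 3 the reverse. Of these, 8 are given here, with Serpina3n and Serpina3i named after their values were seen. The difference itself was not tested, since each group is 1 library. Ccl12 was lower under TSA (log2 ratio -0.76) and higher under vehicle (0.73). Mir223 had -1.42 and 0.77, Ms4a4c -1.06 and 0.95, and Ms4a6c -0.96 and 0.69. Serpina3n had -0.70 and 1.13, and Serpina3i -0.84 and 0.73. Olfr576 was higher under TSA (1.97) and lower under vehicle (-1.01), and Olfr965 had 1.71 and -1.40. Both receptors rest on 5 to 31 counts per library.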

How the results depend on the processing

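The number of promoters called depended on the scaling and on the threshold. Against 192 higher and 295 lower promoters, leaving out the trend gave 1643 and 47, scaling on receptor promoters without the trend 102 and 11895, and subtracting the median receptor count of each library 677 and 100. A mean count of at least 50 gave 80 and 165, only promoters at or above the median mean count 4 and 7, a threshold of 2-fold 60 and 66, 1.5-fold without the interval 475 and 564, and a 99% interval 68 and 157. Of the 47 lower promoters without the trend, 43 were among the 295, and of the 100 after subtraction, 98. Total counts with the trend left every call as it was, and a span of 0.1 shared 189 higher and 289 lower calls. The correlation between the 2 overload comparisons was 0.046, -0.028 from the median mean count up and 0.294 without the trend. The macrophage list was below 0 at the median under every setting, from -0.12 among the 5 members at or above the median mean count to -0.89 with receptor scaling. With receptor scaling the median of all promoters was itself -0.61, so a median below 0 there does not set the list apart. The sarcomere median was 0.04 without the trend and -0.55 with receptor scaling. Of the 86 named genes that were called, 0 turned sign in the settings where they had a value, which left 45 at a mean count of 50, 7 at or above the median mean count and 55 after subtraction. Of these 86, 31 lost their call without the trend, 14 with receptor scaling, 47 at 2-fold, 23 with the 99% interval and 8 of 55 after subtraction, Ccl6 among them. With 1 library per group, no library could be left out. No paired analysis was possible because each group has 1 library. Depth limits precision at low counts: Cdkn2d, with 19 counts in Sham TSA and 6 in TAC TSA, had a ratio of -1.99 and an interval from -3.60 to -0.61.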
